A study of Mus musculus with 7 samples.

Results

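Imprinted genes are transcribed mainly or only from the copy inherited from 1 parent, and 10 of them were followed across the cell types of the mouse ventricular-subventricular zone (V-SVZ): Igf2, Dlk1, Meg3, Peg3, Ndn, Cdkn1c, Grb10, Mest, Plagl1 and Dio3os. They were taken by symbol from the 32285 genes of 7 single-cell libraries, and all 10 were found in each library. Single cells of the lateral ventricular wall were captured by droplet, and the 3′ ends of their transcripts were counted as unique molecular identifiers (UMIs), so a value is a count of molecules and says nothing of which parental copy was read. The study asked how loss of the transcription factor Prdm16 from radial glia alters the adult neural stem cell (NSC) niche, and whether loss of the adhesion molecule Vcam1 modifies that outcome.

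All mice carried floxed Prdm16 alleles and were postnatal day 31 to 33. The 3 control libraries are labelled Prdmflox/flox and carried no Cre. The 3 Prdm16 cKO libraries were hGFAP-Cre+/-; Prdm16flox/flox, and the single Prdm16-Vcam1 DKO library was hGFAP-Cre+/-; Prdm16flox/flox; Vcam1flox/flox. Each library was a pool of 2 to 3 mice of both sexes, so the spread between libraries is a spread between pools. The human GFAP promoter drives Cre in radial glia, hence deletion reaches neurons and glia descended from them, whereas endothelial cells, mural cells and microglia come from other lineages.

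Imprinting is set by DNA methylation that differs between egg and sperm and is kept in the embryo at control regions, where the protein ZFP57 binds methylated copies of the hexamer TGCCGC. Many imprinted genes act on growth. Paternally expressed ones such as Igf2, Dlk1, Peg3, Mest and Plagl1 tend to promote it. Maternally expressed ones such as Cdkn1c tend to restrain it. In the V-SVZ, Dlk1 is secreted by niche astrocytes and displayed by NSCs, which use both parental copies of it, and Igf2 from the choroid plexus, leptomeninges and vessels supports NSC maintenance. Cdkn1c encodes the cell cycle inhibitor p57, associated with stem cell quiescence.

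After the filter on cells (500 to 7000 detected genes and at most 10% mitochondrial UMIs) 43346 cells were left, 1868 to 9502 per library, with 4959.5 to 8317.5 median UMIs per cell. The libraries held 45758003 to 141353017 UMIs in all. The filter kept 49.8% and 47.2% of the barcodes of Prdm16 cKO libraries 2 and 3 and 70.2% to 74.7% of those of the other libraries. In 731 cells the barcode occurred in more than 1 library, and no pair of libraries shared more than 1.48% of the smaller. Clusters were built without the 10 genes and without other imprinted genes, and 11 cell types were named from their markers and tested, each called X-like here. A further cluster of 80 cells met the marker rule for T cells but was led by B cell genes such as Igkc and Cd79a as well, so no name is used for it here, and it was not tested. NSC-like cells (5421 cells) carried 4 of 5 NSC markers, Gfap, Thbs4, Hes5 and Fabp7, together with 5 astrocyte markers. Prdm16 itself stood at 74.6, 63.4 and 69.9 UMIs of the gene per 1e+06 UMIs of the library's cells of that type (CPM) in the control NSC-like cells, at 55.0, 51.7 and 47.2 in Prdm16 cKO and at 57.0 in Prdm16-Vcam1 DKO. The log2 fold change of -0.35 did not pass edgeR's test (adjusted p = 0.299). In astrocyte-like cells the control and Prdm16 cKO means were 47.3 and 53.3 CPM (0.17, adjusted p = 0.816), and since 3′ tags may lie outside the deleted part the count does not check the deletion.

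The genes lie on 5 chromosomes of the mouse build GRCm38, as the GENCODE annotation places them. Dlk1 (chr12:109452823-109463336, plus strand), Meg3 (chr12:109541001-109571726, plus strand) and Dio3os (chr12:110275385-110278172, minus strand) belong to the imprinted domain of chromosome 12, in which Dlk1 is a paternal protein-coding gene and Meg3 a maternal long non-coding RNA. Dio3os starts beside the thyroid hormone deiodinase gene Dio3 (chr12:110279068-110281097, plus strand) and is read away from it. Igf2 (chr7:142650766-142666816) and Cdkn1c (chr7:143458339-143461050) lie on the minus strand of the distal chromosome 7 cluster, Ndn (chr7:62346569-62350262, plus strand) in the region orthologous to the Prader-Willi locus, and Peg3 (chr7:6703892-6730431, minus strand) near the other end of that chromosome. Grb10 (chr11:11930508-12038683, minus strand), Mest (chr6:30723547-30748465, plus strand) and Plagl1 (chr10:13060504-13131694, plus strand) stand apart. No same-strand gene overlaps any of the 10.

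RefSeq start windows (GRCm38.p6, 250 bases before to 50 after an annotated start) were at hand for 9 of the 10 genes, 16 windows in all. The number of CpG sites per 300 bases ran from 1 to 53 with a median of 13, against a median of 7 over all 32851 windows. TGCCGC, searched on both strands, occurred in 6 of the 16 windows, those of 5 genes, against 11.6% of all windows, and the 2 overlapping Mest windows share their matches. Shown here are the windows of the 3 genes that were highest in NSC-like cells, Dlk1, Dio3os and Plagl1, and the first of the 2 windows of Meg3, a gene that shares the chromosome 12 domain with Dlk1 and Dio3os but was highest in neurons. Every CpG is in capitals and each sequence is given 5′ to 3′ on the gene's strand.
Dlk1, chr12:109452573-109452872, plus strand, 9 CpG: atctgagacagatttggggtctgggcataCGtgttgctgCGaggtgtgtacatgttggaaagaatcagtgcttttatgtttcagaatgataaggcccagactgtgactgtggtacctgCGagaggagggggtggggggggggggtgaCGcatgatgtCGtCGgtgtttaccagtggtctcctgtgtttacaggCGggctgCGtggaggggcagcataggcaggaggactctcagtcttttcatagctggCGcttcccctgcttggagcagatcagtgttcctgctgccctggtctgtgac
Meg3, chr12:109540746-109541045, plus strand, 13 CpG: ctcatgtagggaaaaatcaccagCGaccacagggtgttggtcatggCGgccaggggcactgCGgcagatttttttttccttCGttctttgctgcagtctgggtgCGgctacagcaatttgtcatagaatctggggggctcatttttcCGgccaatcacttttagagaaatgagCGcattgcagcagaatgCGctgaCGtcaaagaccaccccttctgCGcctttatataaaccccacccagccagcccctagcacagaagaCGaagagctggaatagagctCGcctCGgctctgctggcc
Dio3os, chr12:110278019-110278318, minus strand, 53 CpG: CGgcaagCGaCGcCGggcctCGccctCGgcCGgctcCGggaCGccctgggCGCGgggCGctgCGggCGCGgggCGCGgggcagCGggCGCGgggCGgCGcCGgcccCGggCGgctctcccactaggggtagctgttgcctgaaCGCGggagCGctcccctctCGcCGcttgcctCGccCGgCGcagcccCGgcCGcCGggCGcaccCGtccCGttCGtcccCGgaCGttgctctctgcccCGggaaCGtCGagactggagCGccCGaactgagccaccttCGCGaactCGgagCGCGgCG
Plagl1, chr10:13090582-13090881, plus strand, 26 CpG: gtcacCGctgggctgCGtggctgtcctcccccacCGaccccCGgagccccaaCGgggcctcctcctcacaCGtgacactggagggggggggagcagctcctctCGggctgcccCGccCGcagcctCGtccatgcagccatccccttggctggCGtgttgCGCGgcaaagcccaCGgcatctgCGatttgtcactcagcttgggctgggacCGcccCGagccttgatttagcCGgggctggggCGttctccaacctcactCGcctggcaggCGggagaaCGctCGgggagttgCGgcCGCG
The Dio3os window was the densest, and 0.451% of all windows hold as many CpG sites. The second Meg3 window (chr12:109545148-109545447) has 1 CpG, the fewest of the 16, and no TGCCGC. The first Meg3 window and the Plagl1 window each hold 1 TGCCGC on either strand, and those letters are not in the Dlk1 and Dio3os windows. Counts of 3′ ends do not show which start was used.

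By the named cell type with the highest mean, the 10 genes fell into 3 sets: glial stem cells and their kin (Dlk1, Dio3os, Plagl1), neurons and their precursors (Meg3, Peg3, Ndn, Mest), and vessels (Igf2, Cdkn1c, Grb10), though Igf2 was higher still in a small set of cells outside the named types. In 7 of the 10 the highest cell type exceeded the next one in all 7 libraries, a pattern missed by Ndn, Grb10 and Plagl1. Neighbouring types in the order of mean CPM were compared by an exact two-sided sign-flip permutation test over the 7 libraries, whose smallest possible p is 0.0156. With 100 such pairs, the smallest adjusted p was 0.0579, so no step in these orders passed 0.05 after adjustment.

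**Figure D1:**
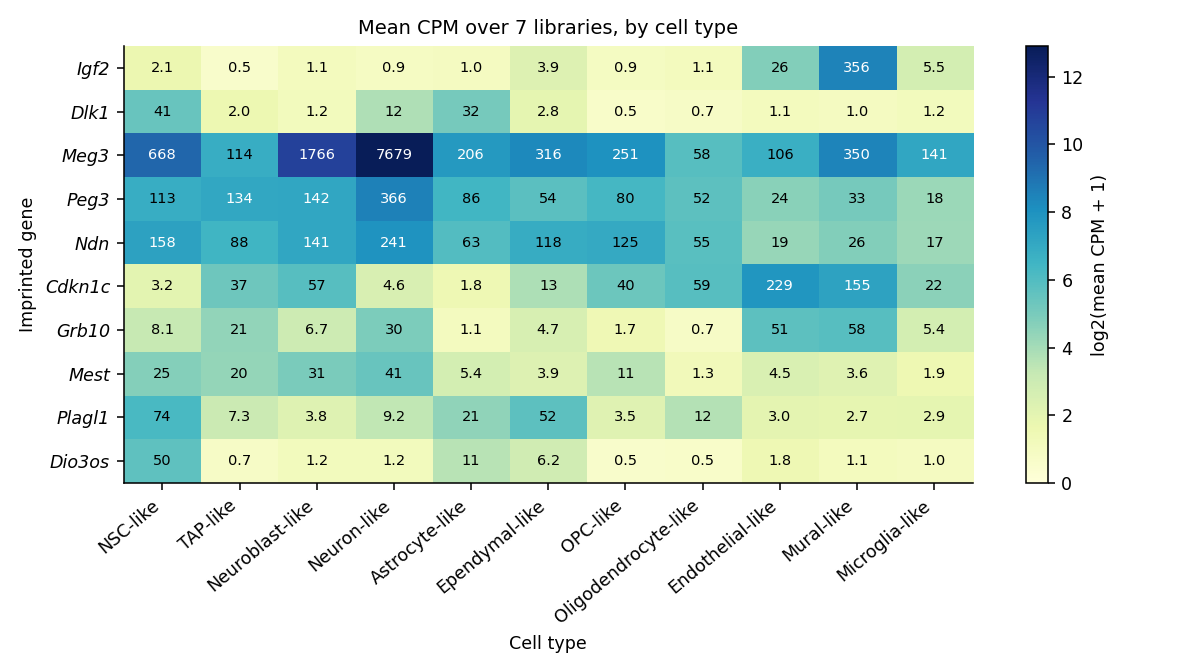
Mean CPM over 7 libraries of each imprinted gene (rows) in each of the 11 cell types (columns), printed in the cells and coloured as log2(mean CPM + 1). Read along a row: Dio3os stands at 49.5 in NSC-like cells, Meg3 at 7679 in neuron-like cells and Igf2 at 356 in mural-like cells.

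Dio3os, the non-coding RNA beside the deiodinase gene, had the largest share of its UMIs in a single cell type, the NSC-like cells. Its level there was 58.6, 53.6 and 49.4 CPM in control, 48.8, 46.0 and 57.0 in Prdm16 cKO and 33.3 in Prdm16-Vcam1 DKO. The lowest of these values lay above the highest astrocyte-like value of 16.1 CPM. NSC-like cells gave 11.2% of all UMIs and 73.2% of the Dio3os UMIs. A Dio3os UMI was seen in 29.5% of NSC-like cells and in 0.574% of microglia-like cells, at median depths of 5234 to 12389 and 3718 to 6243 UMIs over libraries. At an equal 2000 UMIs per cell, the shares were 9.07% and 0.262%, leaving out 1 to 87 shallower NSC-like and 11 to 78 shallower microglia-like cells per library.

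Dlk1, a transmembrane and secreted relative of the Notch ligands, was highest in NSC-like cells and nearly as high in astrocyte-like cells. In NSC-like cells the control libraries had 26.8, 67.7 and 26.1 CPM, the Prdm16 cKO libraries 36.7, 60.4 and 44.3, and the Prdm16-Vcam1 DKO library 27.3. Both library numbers 2 were the high ones, so the spread within a genotype was wider than the gap between genotypes. Astrocyte-like cells had 31.9 ± 14.4 CPM (SD, n = 7 libraries), lower than the NSC-like cells of the same library in 7 of 7. Beyond the astroglia, Dlk1 averaged 12.5 CPM in neuron-like cells, where 396 UMIs came from only 87 of 2624 cells and up to 33 from a single cell. In endothelial-like and mural-like cells it stayed at 1.09 and 0.969 CPM.

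Plagl1, a zinc finger transcription factor also known as Zac1, marked NSC-like cells (73.7 ± 20.9 CPM, SD, n = 7) and ependymal-like cells (52.0 ± 13.1). The NSC-like value was the higher in 5 of 7 libraries (exact permutation p = 0.0625, adjusted p = 0.145), so the order of this pair did not hold in every library. Ependymal-like cells, which share their radial glial origin with NSCs, exceeded astrocyte-like cells (20.8 CPM) in 7 of 7 libraries. Transit amplifying precursor (TAP)-like cells and neuroblast-like cells, the later stages of the lineage, had 7.29 and 3.76 CPM.

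Meg3 was highest in neuron-like cells, at 11409, 9682 and 7637 CPM in control, 6871, 5283 and 5483 in Prdm16 cKO and 7384 in Prdm16-Vcam1 DKO. Neuroblast-like cells followed with 1766 ± 395 CPM (SD, n = 7), then NSC-like cells with 668 ± 89.7 and mural-like cells with 350 ± 56.9, each step in the same order in 7 of 7 libraries. TAP-like cells, which lie between NSCs and neuroblasts in the lineage, had only 114 ± 24.5 CPM, so the level along the lineage was high, low and high again. Neuron-like cells held 8.40% of all UMIs and 60.7% of the Meg3 UMIs. Further members of the same transcript domain followed it: Rian, a snoRNA host, had 573 CPM in neuron-like and 74.6 CPM in NSC-like cells.

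Peg3, a zinc finger protein, and Ndn, a MAGE family protein of postmitotic neurons, were broad and highest in neuron-like cells. Peg3 averaged 366 ± 66.3 CPM there, 142 ± 23.2 in neuroblast-like, 134 ± 16.4 in TAP-like and 113 ± 12 in NSC-like cells (SD, n = 7). Neuroblast-like cells exceeded TAP-like cells in only 4 of 7 libraries (exact permutation p = 0.203, adjusted p = 0.333), while TAP-like exceeded NSC-like cells in 7 of 7. Ndn averaged 241 CPM in neuron-like and 158 in NSC-like cells, the former higher in 6 of 7 libraries. Neither gene was high in vessels: in endothelial-like cells Peg3 averaged 23.5 and Ndn 19 CPM.

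Mest, an enzyme of the alpha/beta hydrolase fold, averaged 41.5 ± 7.96 CPM in neuron-like, 30.8 ± 5.0 in neuroblast-like, 25.5 ± 10.7 in NSC-like and 19.9 ± 6.11 in TAP-like cells (SD, n = 7). The first step held in 7 of 7 libraries, and the next pair of steps in 5 and 4 of 7. In oligodendrocyte-like cells, at the other end, it averaged 1.32 CPM.

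Cdkn1c had its highest CPM in the vascular types, though most of its UMIs lay outside them, and it was low in NSC-like cells. Endothelial-like cells had 209, 255 and 286 CPM in control, 231, 145 and 198 in Prdm16 cKO and 278 in Prdm16-Vcam1 DKO, and mural-like cells averaged 155 ± 37.1. Of the 1469 mural-like cells 335 lay in a cluster that also carried 5 endothelial markers, and its part in the mural-like mean was not tested. The NSC-like mean was 3.17 ± 0.789 and the astrocyte-like mean 1.76 ± 0.879 CPM (SD, n = 7). TAP-like (37.1 CPM), neuroblast-like (56.9 CPM) and oligodendrocyte precursor (OPC)-like cells (39.6 CPM) all lay above NSC-like cells. Oligodendrocyte-like cells, with 23.7% of all UMIs, averaged 58.6 CPM and held 29.5% of the Cdkn1c UMIs, against 22.0% in endothelial-like cells.

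Grb10, an adapter that dampens insulin and IGF1 receptor signalling, averaged 58.2 ± 10.7 CPM in mural-like and 50.9 ± 9.28 in endothelial-like cells. The mural-like value was the higher in 5 of 7 libraries (exact permutation p = 0.141, adjusted p = 0.265), so this order did not hold in every library. The part of the mural-like cluster with endothelial markers in this order was not tested. Neuron-like cells had 29.7 CPM and TAP-like cells 20.6, while NSC-like and neuroblast-like cells had 8.07 and 6.68. From NSC through TAP to neuroblast the proliferating stage thus had the highest Grb10 level, where Meg3 had its lowest.

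Igf2, the secreted growth factor, had 336, 297 and 244 CPM in the control mural-like cells, 343, 460 and 300 in Prdm16 cKO and 511 in Prdm16-Vcam1 DKO. A UMI was found in 60.3% of mural-like cells and in 1.5% of microglia-like cells, at median depths of 3298 to 9070.5 and 3718 to 6243 UMIs. At 2000 UMIs per cell the shares were 41.0% and 0.570%, leaving out 3 to 41 shallower mural-like cells per library. In NSC-like cells Igf2 averaged 2.10 ± 1.18 CPM (SD, n = 7), from 112 UMIs in 5421 cells.

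Mural-like cells were not the strongest source of Igf2. Of the 10581 Igf2 UMIs, 55.9% lay in clusters that received no name, and 5860 of them in 126 cells. Clustering without integration set these 126 cells, 6 to 33 per library, apart with the markers of leptomeningeal fibroblasts, the matrix-forming cells of the brain's coverings. Their Igf2 level was 4106, 4826 and 4675 CPM in control, 4048, 5605 and 6834 in Prdm16 cKO and 4642 in Prdm16-Vcam1 DKO, and 100% of them held an Igf2 UMI. The groups overlapped, and the remaining 1546 cells of their cluster held 6 Igf2 UMIs.

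Markers of neighbouring vessel cells were present in each vascular type and were therefore followed beside Igf2. The 5 fibroblast markers summed to 335 to 543 CPM in mural-like cells. The 313 mural-like cells without any fibroblast marker UMI had 435 CPM of Igf2 (219 to 884 over libraries) against 355 CPM in the 1156 cells with them. The 1025 endothelial-like cells with a mural marker UMI averaged 52.8 CPM of Igf2 and held 387 UMIs, whereas the 1745 cells without held 16 UMIs and averaged 1.92 CPM. What part RNA of neighbouring cells has in these values was not tested. Cdkn1c in the same 2 sets was 213 and 244 CPM. Of the 2 mural-like clusters, the one that also carried smooth muscle markers had 472 CPM of Igf2, and the one that also carried endothelial markers had 227 CPM.

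**Figure D2:**
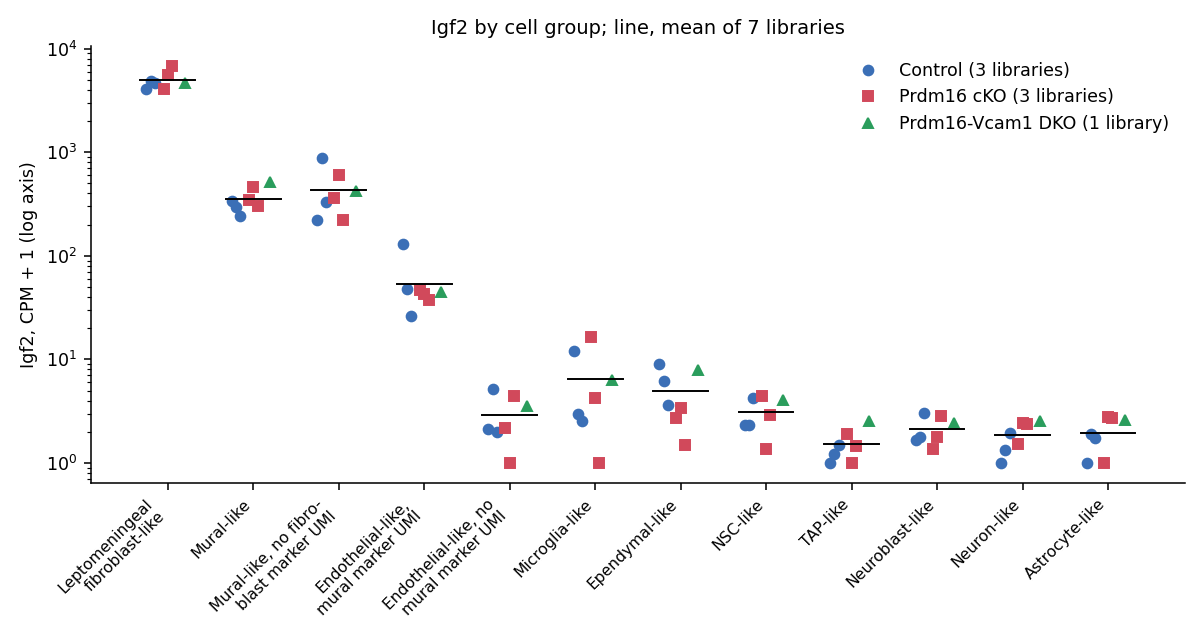
Igf2 as CPM + 1 (log axis) in each library, by cell group; circles are control, squares Prdm16 cKO and the triangle Prdm16-Vcam1 DKO, and the line is the mean of 7 libraries. Leptomeningeal fibroblast-like cells lie between 4048 and 6834 CPM, and endothelial-like cells without a mural marker UMI average 1.92 CPM.

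For each member, the genes whose means across the 11 cell types ran most like it were listed (Pearson's r of log2(mean CPM + 1)). This describes types of the same libraries. Such genes share the member's order over types by selection, so they add no support for the sets above. Igf2 ran with the pericyte genes Vtn (r = 0.992), Higd1b and Abcc9. Dio3os ran with its neighbour Dio3 (r = 0.974) and with Gfap (r = 0.971), the intermediate filament of NSCs and astrocytes. Vtn, Abcc9 and Gfap were also among the markers used to name the clusters. Meg3 ran with Rian (r = 0.983), B830012L14Rik (r = 0.977) and Mirg (r = 0.973). Dlk1 ran with Crym, Plagl1 with Morn2, Peg3 with Ahi1, Ndn with Zfp612, Mest with Smarca1, Grb10 with Btg3 and Cdkn1c with Rbm42, at r between 0.884 and 0.981. Among the members, Peg3 and Ndn were closest (r = 0.906) and Dlk1 and Cdkn1c farthest apart (r = -0.869).

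The effect of genotype was tested on the UMIs summed per library and cell type with edgeR's quasi-likelihood test, adjusted over all genes tested in that type. Of 110 gene-by-type pairs of the 10 genes, 90 had enough counts to be tested and 20 did not. Between Prdm16 cKO and control 0 of 90 passed an adjusted p of 0.05, where 0.146% of all 140782 gene-by-type tests passed. At an unadjusted p under 0.05 there were 14 of the 90, against 6.18% of all tests. DESeq2 also gave 0, where 0.747% of all tests passed. Leaving out Prdm16 cKO library 1 gave 8 passing pairs, where 2.17% of all tests passed, and leaving out any other single library gave 0. The 8 were Plagl1 in NSC-like, astrocyte-like and TAP-like cells, Grb10 in NSC-like and neuroblast-like cells, Mest in NSC-like, Meg3 in astrocyte-like and Cdkn1c in TAP-like cells. Prdm16 cKO libraries 2 and 3, then left, had 49.8% and 47.2% of their barcodes kept by the cell filter, against 70.2% to 73.8% in control. What part this has in the 8 pairs was not tested. The median log2 fold change of the 90 was -0.03, against 0.0013 over all tests, and 43 values were above 0 and 47 below.

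In 12 of the 90 pairs the 3 Prdm16 cKO and 3 control libraries did not overlap in CPM, where 11.2% of all pairs did not, a share close to that of the 10 genes. These 12 were Plagl1 in NSC-like and astrocyte-like cells, Dio3os in astrocyte-like cells, Meg3 in neuron-like, OPC-like and mural-like cells, Cdkn1c in neuroblast-like and neuron-like cells, Dlk1 and Grb10 in TAP-like cells, Igf2 in ependymal-like cells and Peg3 in mural-like cells.

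**Figure D3:**
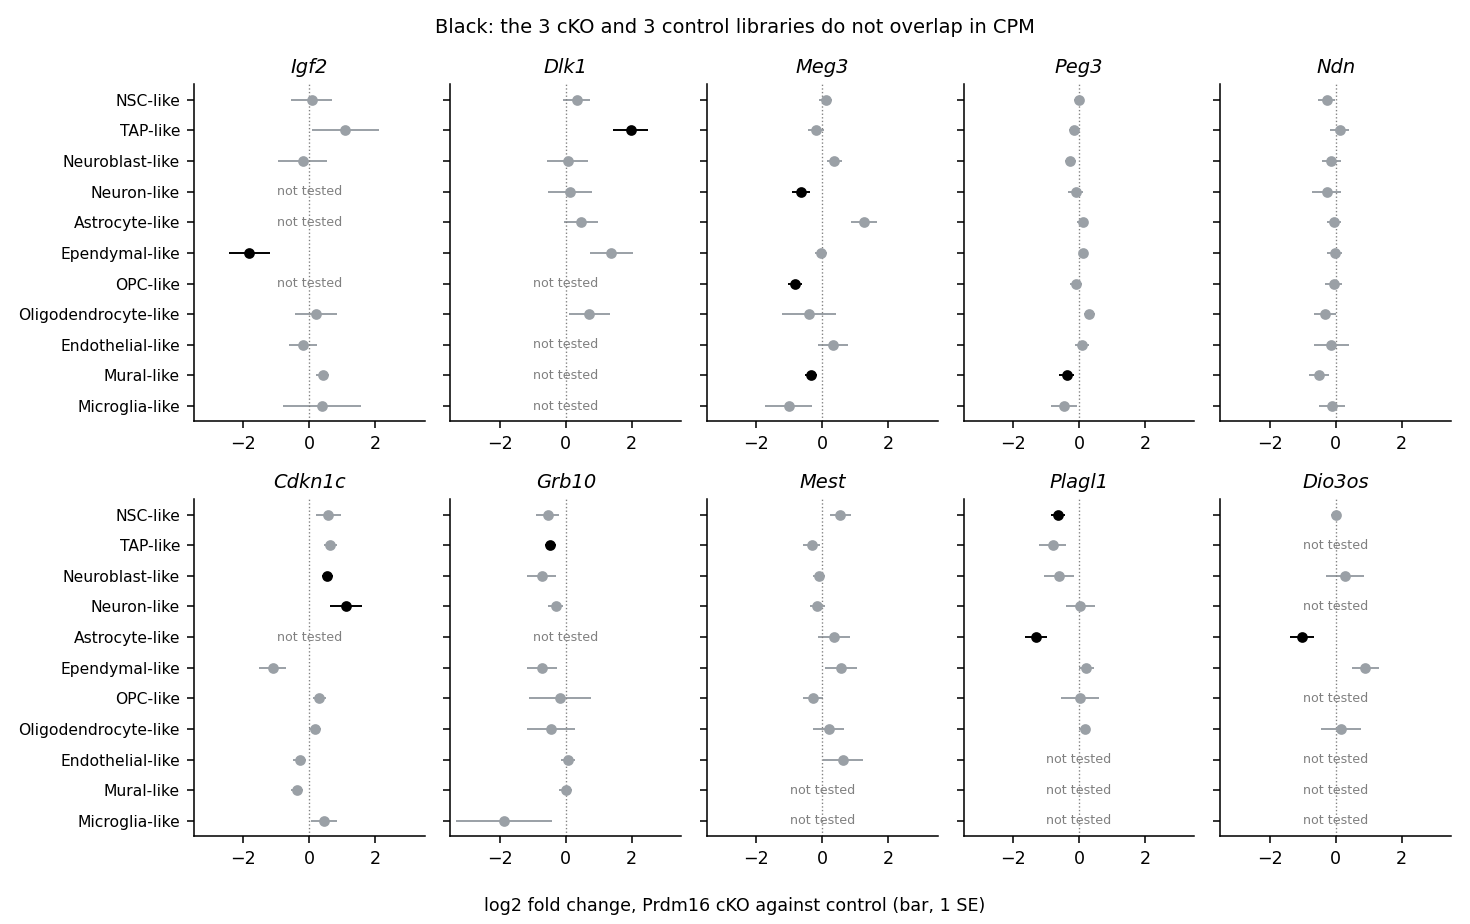
log2 fold change of Prdm16 cKO against control (x axis) for each imprinted gene (panels) in each cell type (y axis); bars are 1 SE from edgeR, and black marks the pairs in which the 3 and 3 libraries did not overlap in CPM. The astrocyte-like cells hold both the lowest Plagl1 value, -1.30, and the highest Meg3 value, 1.26.

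Plagl1 came nearest to a call. In astrocyte-like cells its control level was 40.4, 23.4 and 27.1 CPM, that of Prdm16 cKO 19.5, 8.07 and 7.91, and that of Prdm16-Vcam1 DKO 19.2. Every Prdm16 cKO library lay below every control library, but the log2 fold change of -1.30 (SE 0.33) had an adjusted p of 0.0936 by edgeR. Without Prdm16 cKO library 1 it was -1.90 (adjusted p = 0.000302), and the pair also passed with no filter on low counts (adjusted p = 3.56e-05). With the replicate number as a block it was -1.38 (adjusted p = 0.000134 by edgeR), although the labels state no shared origin for equal numbers. Of all genes tested in astrocyte-like cells 1.16% passed edgeR's test under the main settings. Of these tested genes 14% did not overlap between the 3 and 3 libraries, against 2 of the 7 imprinted genes tested there.

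In NSC-like cells Plagl1 had 96.2, 78.8 and 94.8 CPM in control and 66.3, 63.2 and 35.9 in Prdm16 cKO, again without overlap, with 80.5 in Prdm16-Vcam1 DKO, between the 2 lower controls. Its log2 fold change was -0.64 (SE 0.21, adjusted p = 0.186 by edgeR). It passed without Prdm16 cKO library 1 (-0.80, adjusted p = 0.0219) and with no filter on low counts (-0.65, adjusted p = 0.0298). Among the libraries whose headers name Cell Ranger 6.0.1 the difference in log2(CPM + 1) was -0.42, and among those of 6.1.1 (a single pair) it was -1.38. All 10 genes were tested in NSC-like cells and 0 passed, where 0.195% of all genes there passed, and Plagl1 alone did not overlap, where 16.9% of all genes did not. In the same NSC-like cells TAP markers summed to 275 to 351 CPM in control and 179 to 266 in Prdm16 cKO, neuroblast markers to 259 to 353 and 143 to 245, pericyte markers to 111 to 138 and 72.9 to 87.1, and astrocyte markers to 2511 to 2712 and 2656 to 3923, and their part in the NSC-like values was not tested. In ependymal-like cells, the other Plagl1-rich type, the 3 control values of 49.2, 50.1 and 46.1 CPM lay inside the Prdm16 cKO range of 38.9 to 80.1.

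Dio3os differed without overlap in astrocyte-like cells and not in NSC-like cells, a contrast that was not tested. Its astrocyte-like level was 16.1, 13.3 and 14.3 CPM in control, 9.29, 10.8 and 3.09 in Prdm16 cKO and 7.99 in Prdm16-Vcam1 DKO (log2 fold change -1.03, SE 0.36, adjusted p = 0.256 by edgeR). In NSC-like cells the 2 groups overlapped, with means of 53.9 and 50.6 CPM and a log2 fold change of 0.01 (SE 0.15). The CPM means, scaled by total UMIs, and the fold change, fitted by edgeR with TMM factors, differ in sign here. Its neighbour Dio3 had a mean of 16.9 CPM in control and 27.7 CPM in Prdm16 cKO NSC-like cells, without overlap but also without passing edgeR's test (adjusted p = 0.219). Of 38 further imprinted genes tested there, Dio3 among them, 5 did not overlap, where 16.9% of all genes did not.

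Meg3 in astrocyte-like cells had 132, 357 and 349 CPM in Prdm16 cKO against 88.1, 159 and 102 in control, with 255 in Prdm16-Vcam1 DKO. The first Prdm16 cKO library lay within the control range, and the log2 fold change of 1.26 (SE 0.40) had an adjusted p of 0.310. Without that library it was 1.60 (adjusted p = 5.89e-05), and with no filter on low counts 1.26 (adjusted p = 8.41e-07). With the replicate number as a block it was 1.20 (adjusted p = 9.68e-06 by edgeR). In NSC-like cells the means were 686 and 688 CPM. In the other direction, OPC-like cells had 348, 369 and 279 CPM in control and 167, 113 and 227 in Prdm16 cKO (-0.84, SE 0.21, adjusted p = 0.956, or 0.0406 with no filter on low counts) and neuron-like cells a mean of 9576 and 5879 CPM (-0.65, SE 0.26), neither passing edgeR's test with the filter. NSC markers summed to 1363 to 1559 CPM in control and 1144 to 1475 CPM in Prdm16 cKO astrocyte-like cells, and endothelial markers to 5.21 to 21.0 and 26.9 to 50.2 CPM, and their part in the astrocyte-like values was not tested.

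**Figure D4:**
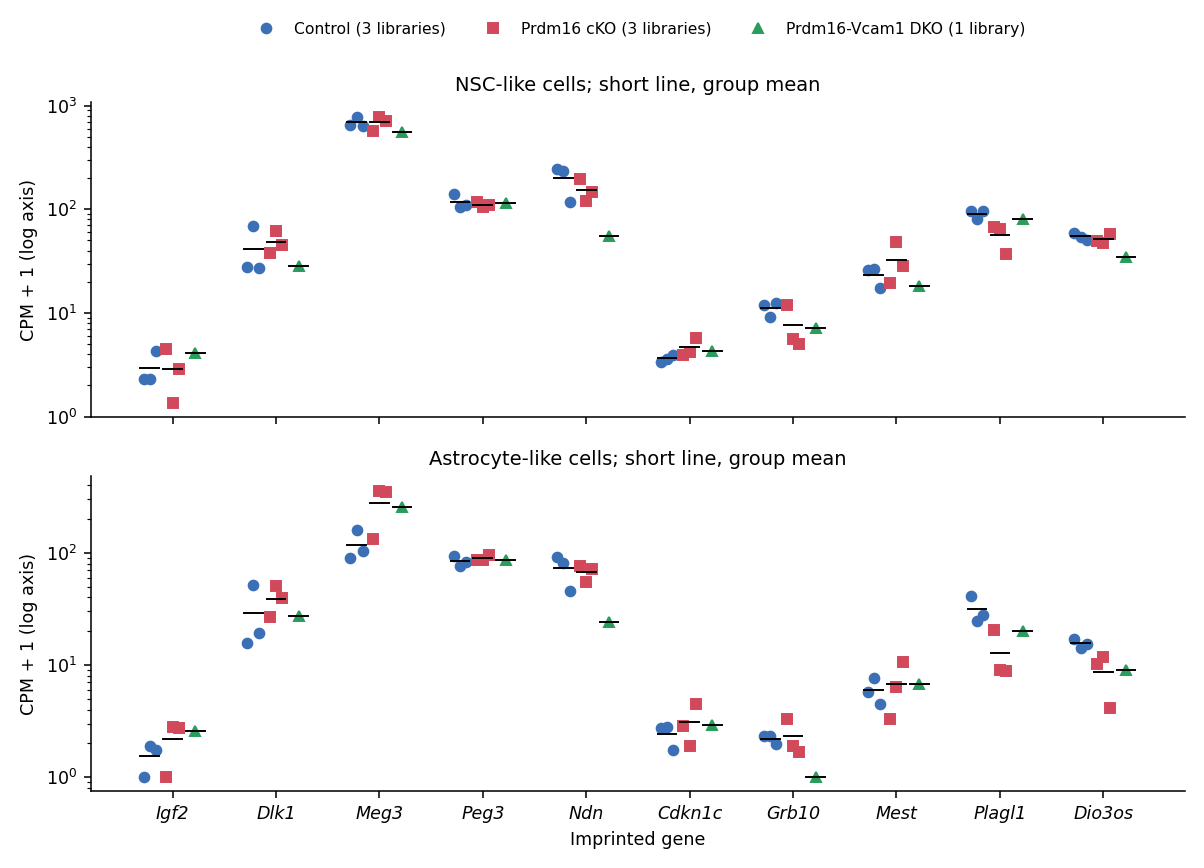
CPM + 1 (log axis) of the 10 imprinted genes in NSC-like cells (top) and astrocyte-like cells (bottom), with 1 point per library and a short line at each group mean. The control and Prdm16 cKO libraries do not overlap for Plagl1 in either, with means of 90.0 and 55.1 CPM and of 30.3 and 11.8 CPM. Neither difference passed edgeR's test after adjustment, and 16.9% and 14% of all genes tested in these types did not overlap.

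Of the other members in NSC-like cells, Dlk1 averaged 40.2 CPM in control and 47.1 in Prdm16 cKO (log2 fold change 0.33, SE 0.41, adjusted p = 0.793). Ndn averaged 199 and 152 CPM (-0.27, SE 0.26), Mest 22.4 and 31.2 CPM (0.55, SE 0.32) and Grb10 10.2 and 6.58 CPM (-0.55, SE 0.36), each with overlapping libraries. Without Prdm16 cKO library 1 the Mest value was 0.82 (adjusted p = 0.0322) and that of Grb10 -1.15 (adjusted p = 0.0242). Peg3, at 117 and 109 CPM, had a log2 fold change of 0.00087 with an SE of 0.15 on edgeR's TMM scale, whose sign differs from that of the CPM means. Cdkn1c stayed low, at 2.64 and 3.65 CPM, and Igf2 at 1.96 and 1.90 CPM, with a log2 fold change of 0.07 (SE 0.62) that likewise differs in sign from its CPM means.

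Later in the lineage, Cdkn1c in neuroblast-like cells was 55.8, 46.6 and 41.2 CPM in control and 59.1, 81.1 and 61.0 in Prdm16 cKO, without overlap (log2 fold change 0.55, SE 0.16, adjusted p = 0.508). In TAP-like cells it was 35.9, 30.6 and 22.6 against 34.0, 54.6 and 44.4 CPM (0.64, SE 0.19, adjusted p = 0.554), where 1 Prdm16 cKO library lay within the control range. Grb10 in TAP-like cells was 27.1, 22.8 and 24.8 against 21.0, 14.8 and 15.2 CPM (-0.46, SE 0.17, adjusted p = 0.710), the opposite order to Cdkn1c. Prdm16 cKO library 3 was below the median for Grb10 in all 11 cell types, and the fold change was below 0 in 9 of 10 tested types. Dlk1 in TAP-like cells rested on few molecules, 92 UMIs in all, at a mean of 0.796 CPM in control and 3.16 in Prdm16 cKO. None of these passed edgeR's test after adjustment with all libraries and the filter on low counts. Cdkn1c in TAP-like cells passed without Prdm16 cKO library 1 (0.84, adjusted p = 0.0384) and with no filter (adjusted p = 0.0236), as did Dlk1 with no filter (adjusted p = 0.0295). In ependymal-like cells Cdkn1c averaged 17.2 CPM in control and 6.40 in Prdm16 cKO with overlapping libraries (-1.10, SE 0.41, adjusted p = 0.453, or 0.0160 with no filter), the opposite direction. In the same TAP-like cells NSC markers summed to 367 to 445 CPM in control and 533 to 923 in Prdm16 cKO, and neuroblast markers to 3939 to 4528 and 2902 to 3891, both without overlap, and their part in the TAP-like values was not tested.

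In vascular cells, which hGFAP-Cre does not target, Igf2 in mural-like cells differed by a log2 fold change of 0.41 (SE 0.20) and Cdkn1c in endothelial-like cells by -0.29 (SE 0.20), with overlapping libraries in both. Meg3 in mural-like cells had 415, 388 and 404 CPM in control and 348, 266 and 291 in Prdm16 cKO (-0.35, SE 0.17), a difference that did not pass after adjustment. Smooth muscle markers summed to 4073 to 4560 CPM in control, 2647 to 3856 in Prdm16 cKO and 2474 in Prdm16-Vcam1 DKO mural-like cells, and neuroblast markers to 270 to 417, 35.9 to 175 and 246, and their part in the mural-like values was not tested. In ependymal-like cells, which descend from radial glia, Igf2 had 8.06, 5.22 and 2.60 CPM in control and 1.73, 2.37 and 0.489 in Prdm16 cKO, from 84 UMIs in 7 libraries (adjusted p = 0.376). Markers of the choroid plexus, itself an Igf2 source, were also present in ependymal-like cells. They summed to 515 to 2470 CPM in control, 144 to 658 in Prdm16 cKO and 3175 in Prdm16-Vcam1 DKO. Their part in the Igf2 and Cdkn1c values of these cells was not tested.

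For Prdm16-Vcam1 DKO there is 1 library, taken to vary like the others. Against control 0 of the 90 pairs passed edgeR's test, where 0.0376% of all tests passed, and 18 had an unadjusted p under 0.05, against 5.13% of all. Against Prdm16 cKO 0 of 90 passed, where 0.0256% of all tests passed, while 14 had an unadjusted p below 0.05, against 4.09% of all. With DESeq2 in its place, 4 pairs passed against control, where 0.143% of all tests did, and 2 against Prdm16 cKO, where 0.0675% did, and the 4 were Ndn in astrocyte-like, NSC-like, oligodendrocyte-like and TAP-like cells. Leaving out control library 3 gave 3 pairs against control (0.034% of all tests), and leaving out Prdm16 cKO library 1 gave 2 (0.241%).

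Ndn made up 10 of the 18 pairs with an unadjusted p under 0.05 against control. In NSC-like cells it had 245, 234 and 116 CPM in control, 195, 119 and 144 in Prdm16 cKO and 53.9 in Prdm16-Vcam1 DKO. The Prdm16-Vcam1 DKO library was the lowest of the 7 in 9 of 11 cell types and below the median in all 11. Prdm16 cKO library 2 was likewise below the median in all 11 and lowest in the remaining 2. Control library 1 or 2 was highest in every type, whereas control library 3 was below the median in 9. The log2 fold change against control ran from -1.13 to -1.86, with an unadjusted p under 0.05 in 10 of 11 types and adjusted p from 0.123 to 0.999. It was -1.77 (SE 0.42) in NSC-like, -1.71 (SE 0.51) in mural-like and -1.57 (SE 0.66) in microglia-like cells. The file headers name Cell Ranger 6.1.1 for the Prdm16-Vcam1 DKO library, control library 3 and Prdm16 cKO library 3, and 6.0.1 for the rest. With a single pool, a difference of that pool and of its genotype cannot be told apart.

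**Figure D5:**
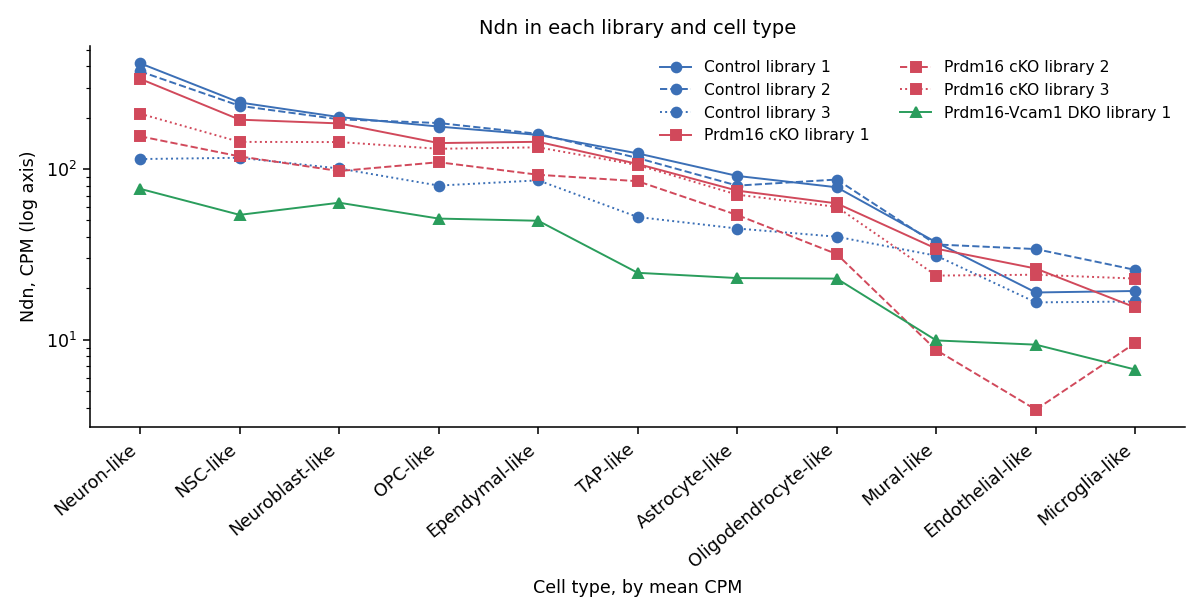
Ndn in CPM (log axis) in the 11 cell types, ordered by mean CPM, with 1 line per library; lines only join the points of a library. The Prdm16-Vcam1 DKO library is lowest in 9 of 11 types, with 53.9 CPM in NSC-like cells.

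Among the other members, Dio3os in NSC-like cells, at 33.3 CPM, lay below the 6 others (log2 fold change against control -0.60, SE 0.22, adjusted p = 0.886). Igf2 in mural-like cells, at 511 CPM, lay above the 6 others (0.89, SE 0.26, adjusted p = 0.615). Over the 11 cell types the Prdm16-Vcam1 DKO library was below the median for Dio3os in 9 and above it for Igf2 in 9. Vcam1, the gene targeted in addition, had 89.4 CPM in NSC-like cells against control and Prdm16 cKO means of 132 and 170. Control library 3 had 107 CPM. The log2 fold change against control, -0.46, did not pass edgeR's test, and as for Prdm16 the count does not check the deletion.

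Of 53 further imprinted genes 51 were in the files. In astrocyte-like cells 29 of them were tested and 1 was called lower in Prdm16 cKO, where 1.16% of all genes were called, 118 higher and 22 lower. In NSC-like cells 38 were tested and 0 called, where 0.195% of all genes were called, and 0 were called in the other 9 types. The called gene was Nnat, a small membrane protein of developing neurons, at 251, 261 and 215 CPM in control, 152, 84.3 and 104 in Prdm16 cKO and 234 in Prdm16-Vcam1 DKO astrocyte-like cells. The groups did not overlap (log2 fold change -1.06, SE 0.21, adjusted p = 0.0152 by edgeR). The call was lost without control library 2 or 3 or Prdm16 cKO library 2 or 3 (log2 fold change from -0.88 to -1.09, adjusted p from 0.0691 to 0.148 by edgeR). In clusters made without integration the log2 fold change was 0.02. Their astrocyte-like set held 10722 cells instead of 2202, and 5973 of the 10722 lay in a cluster that also carried 4 NSC markers. TAP markers summed to 15.6 to 31.8 CPM in control, 8.97 to 15.5 in Prdm16 cKO and 35.8 in Prdm16-Vcam1 DKO astrocyte-like cells, and neuroblast markers to 103 to 112, 57.4 to 108 and 122, and their part in the Nnat values was not tested. In NSC-like cells Nnat averaged 263 and 294 CPM, and the most abundant of the list there were Cd81 (1445 CPM), Gnas (1167 CPM) and Ube3a (191 CPM).

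The 17 listed genes of the IGF system included receptors and binding proteins through which Igf2 acts, and other genes such as Igf1 and Irs1. They gave 1 call, in astrocyte-like cells, where 10 of the 17 were tested. Of all genes there 1.16% were called, mostly higher (118 of 140). Igfbp2, a binding protein that holds IGFs in the extracellular space, rose in astrocyte-like cells from 6.51, 8.40 and 6.41 CPM to 25.5, 38.6 and 63.6, with 9.27 CPM in Prdm16-Vcam1 DKO. The Prdm16 cKO libraries lay above all others (log2 fold change 2.63, SE 0.34, adjusted p = 0.00247 by edgeR). It missed the threshold with a fold change of similar size without control library 2 (2.73, adjusted p = 0.0594) or 3 (2.60, adjusted p = 0.0535) and in clusters made without integration (2.09, adjusted p = 0.0516). The astrocyte-like set without integration was the wider one of 10722 cells, which took in a cluster with 4 NSC markers. Leptomeningeal fibroblast markers summed to 25.9 to 36.7 CPM in control and 5.16 to 18.6 CPM in Prdm16 cKO astrocyte-like cells, with Lum at 0, and endothelial markers to 5.21 to 21.0 and 26.9 to 50.2 CPM, and their part in this result was not tested. In NSC-like cells 14 of the 17 were tested and 0 called. Igf1r, the receptor that binds IGF1 and IGF2, averaged 165 CPM there in control and 115 CPM in Prdm16 cKO without overlap (adjusted p = 0.264 by edgeR). Of the 14 genes 3 did not overlap, where 16.9% of all genes in NSC-like cells did not. Igfbp5 had 1193 CPM and Insr 39.4 CPM there over the 7 libraries.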

How the data were processed

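The authors sequenced 10x Genomics 3′ single-cell libraries and deposited, per library, the filtered UMI count per gene and cell barcode, made with Cell Ranger (6.1.1 in the submitters' processing notes, 6.0.1 or 6.1.1 in the file headers) on mm10. These raw counts were used as deposited. Cells with 500 to 7000 genes and at most 10% mitochondrial UMIs were kept. Seurat 5.3.0 in R 4.3.3 integrated and clustered them on variable genes without imprinted genes, and clusters with at least 3 detected markers of a type were called X-like, unless their cells were shallow for their library and their 10 leading genes held no marker of that type or markers of another. Of 43346 cells, 6608 stayed in unnamed clusters, and a cluster of 80 cells with T and B cell genes was not tested. Doublets marked by Scrublet in scanpy 1.11.5 (2.41%) were kept and left out in an alternative.

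For each type, the counts of a library's cells were added up (at least 10 cells per library) and tested with edgeR 4.0.16 (quasi-likelihood, TMM, filterByExpr, all 7 libraries in 3 groups), with Benjamini-Hochberg adjustment over the genes of a type. CPM are sums divided by the total of that library and type. Neighbouring cell types were compared by an exact sign-flip permutation test in R 4.3.3. On simulated NSC-like sums of 14365 genes, 97.5% of 200 genes changed by 1 on the log2 scale were called, with 10 false calls. The simulation used a single fixed spread for all genes and changed only genes above a set level, also in the Prdm16-Vcam1 DKO library. It does not show how often such a change would be called in the 10 genes. DESeq2 1.42.0, other filters, resolutions and integration, omitted libraries and a replicate block were alternatives.

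All 10 genes are named in all types, and of the further lists those called plus up to 3 of the highest in NSC-like cells. Dio3, Rian, Mirg, Nnat in NSC-like cells and Igf1r were chosen after their values were seen. The genes, lists and tests were chosen with earlier results of these data known. P-values measure the spread between pools of mice. Ranges of median depth run from the lowest to the highest library.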

Additional observations from a re-analysis of the deposited data

How the results depend on the processing

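No member passed in 90 tests of Prdm16 cKO against control under the main settings, and the count of calls was 7 with no filter on low counts (0.889% of all tests) and 0 to 8 when 1 library was left out (8 without Prdm16 cKO library 1). Against control, Prdm16-Vcam1 DKO gave 1 call at a 5% mitochondrial limit (0.0515% of all tests), 4 with DESeq2, 9 with no filter (0.334%) and 0 to 3 with 1 library left out; against Prdm16 cKO it gave 2 with DESeq2, 7 with no filter (0.194%) and 0 to 1 (0.0282% without control library 3). With the replicate number as a block, Prdm16 cKO against control gave 2 calls, both in astrocyte-like cells, Plagl1 (-1.38) and Meg3 (1.20), where 1.13% of all tests passed. Deviations of same-numbered libraries correlated at 0.132 to 0.288 over the cell types for number 1 and at 0.194 to 0.452 for number 3. For number 2 the correlations ran from -0.069 to 0.151. Every correlation was over 0.1 in endothelial-like, mural-like and oligodendrocyte-like cells, where the block changed no member's call. In astrocyte-like cells the correlations were 0.214, 0.0091 and 0.319, not all over 0.1. Each library correlated best with its own number in all of these types and also in ependymal-like and microglia-like cells. The 7 genes whose highest type exceeded the next in every library became 6 at the 5% limit or without integration, 8 at resolution 0.3, and 7 to 8 with 1 library left out. Values near 0 changed sign. In NSC-like cells against control, Prdm16 cKO values were -0.16 for Dio3os and -0.43 for Igf2 at the 5% limit, and for Peg3 -0.010 with no filter and -0.0067 without shared barcodes, an alternative chosen after seeing the data. Grb10 in mural-like cells was 0.018 with DESeq2. Mest and Peg3 in neuron-like cells were 0.077 and 0.064 without integration. For Prdm16-Vcam1 DKO, Peg3 in neuron-like cells was 0.00062 without integration, and with Cell Ranger version as a term Mest in neuron-like cells was 0.036 and Plagl1 in NSC-like cells 0.053. With 1 library left out, Prdm16 cKO values in NSC-like cells ran from -0.13 to 0.079 (Dio3os), -0.48 to 0.77 (Igf2) and -0.076 to 0.079 (Peg3), those of Grb10 in mural-like cells from -0.23 to 0.14, and in neuron-like cells those of Mest from -0.29 to 0.050 and of Peg3 from -0.26 to 0.065. Prdm16-Vcam1 DKO values ran from -0.69 to 0.13 (Dlk1), -0.037 to 0.13 (Peg3) and -0.17 to 0.032 (Plagl1) in NSC-like cells and from -0.26 to 0.069 for Peg3 in neuron-like cells. The cause of these changes was not tested. Without integration no cluster was named NSC-like, so no NSC-like value is given there. A cluster of 5973 cells led by Thbs4 carried 4 NSC markers and 5 astrocyte markers and was named astrocyte-like by the larger number. Dlk1, Plagl1 and Dio3os were then highest in the astrocyte-like set that held it.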
